A study of Mus musculus with 10 samples.

Results

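The 6 peroxiredoxins of the mouse, Prdx1 to Prdx6, were followed in the retinal pigment epithelium (RPE) of eyes with and without added Nrf2. They were chosen by gene symbol and are 6 of the 47729 genes in the count table. RNA was sequenced from 5 wild-type CD1 mice at P40, with 2 libraries per mouse and 10 in all. The control eye of each mouse was injected with AAV Best1 GFP only, and its fellow eye with AAV Best1 hNrf2 together with AAV Best1 GFP. AAV is a virus that carries genes into cells, Nrf2 is a transcription factor that switches on genes against oxidative stress, and Best1 is a human promoter active in the RPE. The Nrf2 cDNA is human, the Nrf2 eyes received an additional vector, and no eye was given an equal load of an inert vector. The RNA came from the eyecup after the retina was lifted off and was amplified from a low input. In such bulk RNA, fewer cells of a type and less RNA per cell cannot be told apart.

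Peroxiredoxins are abundant enzymes that break down hydrogen peroxide and organic peroxides with a cysteine in their active site. In most of them the oxidised cysteine is restored by thioredoxin, which thioredoxin reductase recharges with NADPH, whereas Prdx6 is recharged with glutathione and Prdx4 passes its oxidation on to protein-folding enzymes. If a peroxiredoxin is oxidised too far, sulfiredoxin repairs it. Prdx1 and Prdx2 act in the cytosol, Prdx3 in mitochondria and Prdx4 in the secretory pathway. Prdx5 is placed here with the mitochondrial enzymes, although it is also found in peroxisomes and the cytosol, and Prdx6 is a cytosolic enzyme that also acts on phospholipids. The RPE lives with strong light, high oxygen and a daily load of photoreceptor membranes, which makes peroxide removal a standing task of this tissue.

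Library totals lay between 12298404 and 27310638 counts, and 22340 to 25535 genes were detected per library. The counts of the Nrf2 gene itself, Nfe2l2, were higher in every Nrf2 eye, at 278 to 438 CPM against 78.7 to 113 CPM in control eyes, and reads of the human vector and the mouse gene were not separated. CPM are counts scaled to library size after TMM normalisation, and all log2 fold changes are Nrf2 over control. Defining RPE genes were well detected, with a summed level over 12 markers of 23167 to 48880 CPM in control eyes and 10599 to 31821 CPM in Nrf2 eyes. The sum was lower in the Nrf2 eye of 5 of 5 mice, and 8 of the 12 markers were called lower. The 12 markers of macrophages and microglia summed to 165 to 288 CPM in control eyes and 334 to 1689 CPM in Nrf2 eyes, with 10 of the 12 called higher. Among all 16362 tested genes 447 were called lower and 589, or 3.6%, higher. Rod markers set mouse 2 apart, with 21318 CPM in its control eye and 8247 CPM in its Nrf2 eye. The other control eyes held 159 to 3442 CPM of rod markers and the other Nrf2 eyes 324 to 547 CPM. Muscle markers also varied, with 51.7 to 101 CPM in control eyes. In the Nrf2 eyes of mice 1 to 5 they summed to 5.25, 19.2, 398, 248 and 576 CPM, and none of the 8 was called.

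All 6 peroxiredoxins passed the filter on low counts, so each was tested among 16362 genes with edgeR's quasi-likelihood test, blocked by mouse, with Benjamini-Hochberg adjustment. Prdx1 and Prdx6 rose in the Nrf2 eyes, and Prdx2, Prdx3, Prdx4 and Prdx5 did not pass the adjusted threshold of 0.05. Among all tested genes 589, or 3.6%, were called higher, and 1036, or 6.33%, were called in either direction, against 2 of the 6 peroxiredoxins in each case. No peroxiredoxin was called lower. The median log2 fold change was 0.35 over the 6 members and -0.01 over all tested genes. All 6 members had a value above 0, as did 48.7% of all tested genes, but Prdx2 and Prdx5 by no more than 0.02. At an unadjusted p under 0.05 stood 4 of the 6 members and 3128 of the 16362 tested genes.

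Prdx1 (ENSMUSG00000028691, chr4:116685544-116700822, plus strand of mm10) encodes the most abundant cytosolic peroxiredoxin of many cells. In control eyes of mice 1 to 5 it stood at 696, 563, 752, 634 and 643 CPM. In the Nrf2 eyes of the same mice it stood at 2267, 3047, 2129, 3207 and 2865 CPM. The lowest Nrf2 eye was thus well above the highest control eye, and the control eyes lay close together. Control eyes averaged 657 ± 71.2 CPM and Nrf2 eyes 2703 ± 479 CPM (SD, n = 5 each). This is a log2 fold change of 2.03 (SE 0.18), a 4.08-fold level, with an adjusted p of 0.00144. The rise was seen in 5 of 5 mice, and the within-mouse log2 ratios were 1.70, 2.44, 1.50, 2.34 and 2.16. By log2 fold change Prdx1 was at rank 325 of the 16362 tested genes, within the top 1.99%.

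The DNA in front of Prdx1 is printed because it was the only peroxiredoxin promoter with the core of an antioxidant response element, the motif to which Nrf2 binds with small Maf proteins. The core was searched as TGACNNNGC on both strands of the RefSeq promoters (GRCm38.p6, the same build as mm10), from 250 bases before to 50 bases after each start. Entries were found for Prdx1 to Prdx5 and not for Prdx6. The stretch runs from chr4:116685349-116685543 on the plus strand, 5′ to 3′, and ends just before the first annotated exon. Capitals mark the core, which reads on the minus strand.
Prdx1 upstream: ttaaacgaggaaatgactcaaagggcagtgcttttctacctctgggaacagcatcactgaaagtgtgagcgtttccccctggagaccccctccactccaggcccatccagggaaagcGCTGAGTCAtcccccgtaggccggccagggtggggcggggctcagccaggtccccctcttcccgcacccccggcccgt

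The core of Prdx1 lies at -133 to -125 from the RefSeq start, at chr4:116685466-116685474. The same letters hold TGACTCA, the usual site of AP-1 factors, and a further TGACTCA lies at -237 to -231. The search is loose: TGACNNNGC was present in 4071 of 32851 promoters of this length, or 12.4%, and TGACTCA in 1709, or 5.2%. A match is therefore a description of the letters and not a site. Among 20 genes of the peroxiredoxin cycle with a promoter entry, 5 held the core, among them Srxn1 and Txnrd1, whose levels are given further on. These are shown beside Prdx1 in the direction of the motif, all from the minus strand, with the core in capitals and 10 flanking bases on each side.
Prdx1, chr4:116685456-116685484: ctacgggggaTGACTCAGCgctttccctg
Srxn1, chr2:152105542-152105570: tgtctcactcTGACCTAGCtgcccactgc
Txnrd1, chr10:82859104-82859132: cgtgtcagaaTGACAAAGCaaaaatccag

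Counted in the direction of the gene and not of the motif, the first base of the core is at -92 in Txnrd1. In Srxn1 it is at 29 after the start. The 3 spacer bases differ between all 3 genes, and only in Prdx1 do they complete TGACTCA. The other genes of the cycle with the core were Sesn2, Txndc5 and Ppia, none of which passed the test of expression. Of the other cycle genes that rose, Gstp1 had no match in its promoter window and Gsr had no promoter entry.

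Prdx6 (ENSMUSG00000026701, chr1:161240112-161251219, minus strand) encodes the peroxiredoxin that uses glutathione. In control eyes of mice 1 to 5 it stood at 673, 802, 975, 785 and 1272 CPM. In the Nrf2 eyes it stood at 3030.1, 2268, 3375, 3495 and 3462 CPM. The groups did not overlap, the control eye of mouse 5 was the highest of its group, and the Nrf2 eye of mouse 2 was the lowest of its group. Control eyes averaged 901 ± 234 CPM and Nrf2 eyes 3126 ± 514 CPM (SD, n = 5 each). The log2 fold change was 1.81 (SE 0.15), a 3.51-fold level, with an adjusted p of 0.00157. The within-mouse log2 ratios were 2.17, 1.50, 1.79, 2.16 and 1.44, at rank 381 of the tested genes or the top 2.33%.

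**Figure D1:**
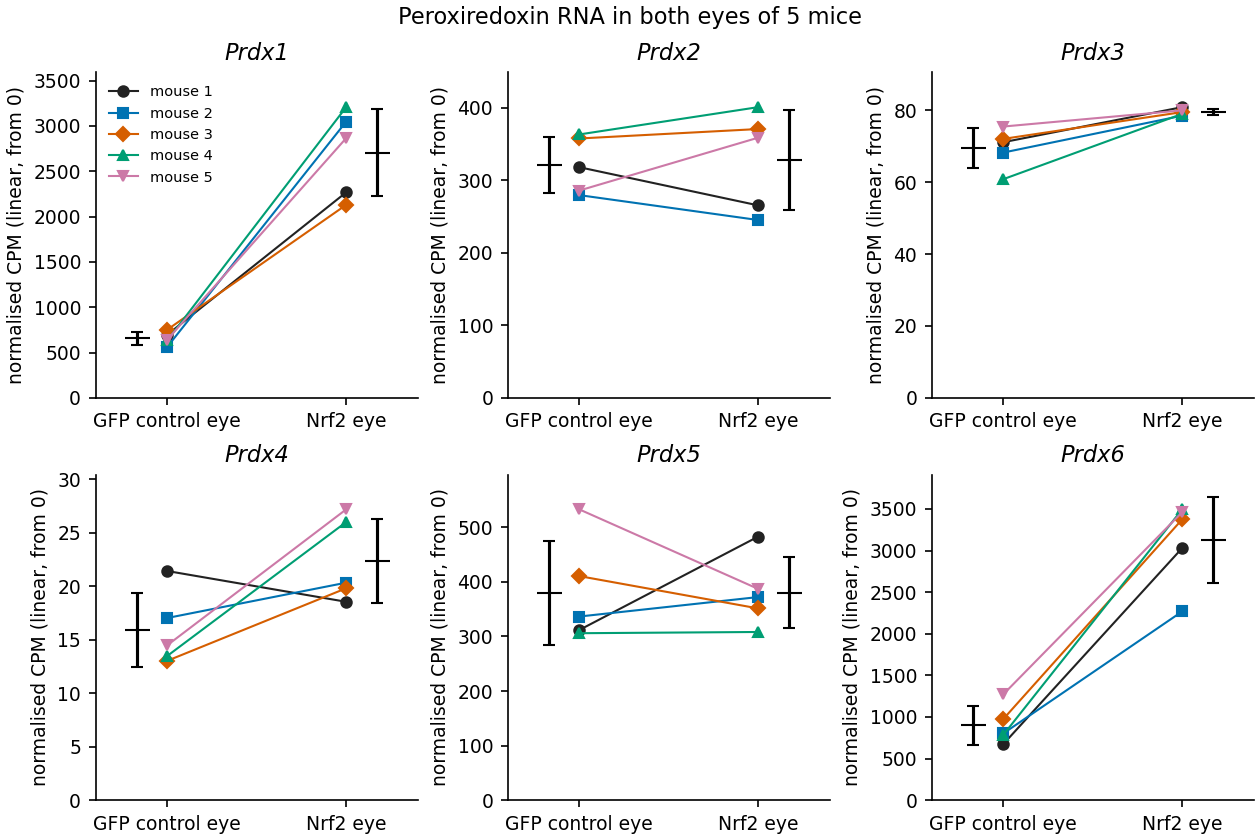
Normalised CPM (linear axes from 0, a scale per gene) of the 6 peroxiredoxins in the 5 control eyes and the 5 Nrf2 eyes, with a line joining the eyes of a mouse and bars for the mean ± SD. Prdx1 climbs from 563 to 752 CPM in control eyes to 2129 to 3207 CPM in Nrf2 eyes and Prdx6 from 673 to 1272 CPM to 2268 to 3495 CPM, whereas the lines of Prdx2 and Prdx5 cross.

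Prdx1 and Prdx6 did not move in step mouse by mouse. The ratio of Prdx1 to Prdx6 in CPM was 1.03, 0.702, 0.772, 0.808 and 0.505 in mice 1 to 5 on the control side. On the Nrf2 side it was 0.748, 1.34, 0.631, 0.918 and 0.827. The ratio was higher in the control eye of mice 1 and 3 and in the Nrf2 eye of mice 2, 4 and 5. The log2 ratio of Prdx1 exceeded that of Prdx6 by 0.21 on average (SD 0.61, range -0.47 to 0.94 over 5 mice) and in 3 of 5 mice (two-sided exact permutation test, p = 0.5). Which of these genes responded more could not be told from 5 mice.

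The macrophage and microglia markers moved in the same direction as Prdx1 and Prdx6, and their part in both results was not tested. In mice 1 to 5 these markers summed to 257, 181, 278, 288 and 165 CPM in control eyes. In the Nrf2 eyes of the same mice they summed to 826, 334, 669, 994 and 1689 CPM, above the control eye in each mouse. Without mouse 2, whose eyes held the most rod RNA, the log2 fold change was 1.96 for Prdx1 (edgeR, adjusted p = 0.00862) and 1.93 for Prdx6 (edgeR, adjusted p = 0.00773).

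Prdx2 (ENSMUSG00000005161, chr8:84969587-84974834, plus strand) encodes the other typical cytosolic peroxiredoxin, best known from red blood cells. In control eyes it stood at 318, 279.6, 358, 363 and 286 CPM, and in Nrf2 eyes at 265, 245, 371, 401 and 359 CPM. The Nrf2 eye was the higher in 3 of 5 mice, and the groups overlapped over most of their range. The means were 321 ± 39.0 and 328 ± 68.7 CPM (SD, n = 5 each). The fitted log2 fold change was 0.01 (SE 0.11, adjusted p = 0.974). Markers of red blood cells summed to 274 to 2198 CPM in control eyes and 391 to 2427 CPM in Nrf2 eyes, and none of the 5 tested was called. Exons of Prdx2 share 173 bases with Junb and 177 bases with Rnaseh2a on the opposite strand, and the strand setting of the counting was not stated. Neither neighbour was called, with log2 fold changes of 0.22 and 0.06. Counts per library ran from 1277 to 9636 for Junb and from 326 to 733 for Rnaseh2a. Their part in single values of Prdx2 was not tested.

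Prdx3 (ENSMUSG00000024997, chr19:60864051-60874556, minus strand), the thioredoxin-dependent peroxidase of mitochondria, stood at 71.1, 68.2, 72.01, 60.8 and 75.4 CPM in control eyes. In Nrf2 eyes it stood at 80.8, 78.5, 79.5, 79.0 and 79.9 CPM. In CPM every Nrf2 eye was above every control eye, a pattern shared by 634 of the tested genes, or 3.87%, and by Prdx1, Prdx3 and Prdx6 among the members. The gap was small, however. The means were 69.5 ± 5.51 and 79.5 ± 0.915 CPM (SD, n = 5 each), and the log2 fold change of 0.20 (SE 0.05) was not called (adjusted p = 0.256, unadjusted p = 0.0483 by edgeR's test). The Nrf2 eyes differed by a coefficient of variation of only 1.15%, under the 2.23% to 3.15% that counting error alone gives at these counts, and the control eyes by 7.92%. On the TPM scale used below the spread of the Nrf2 eyes was larger, at 146 ± 6.47 TPM (SD, n = 5), and the groups overlapped: the Nrf2 eye of mouse 3, at 137 TPM, was below the control eye of mouse 1, at 140.4 TPM.

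Prdx5 (ENSMUSG00000024953, chr19:6906697-6910106, minus strand), an atypical peroxiredoxin of mitochondria and peroxisomes, stood at 312, 337, 411, 306 and 533 CPM in control eyes. In Nrf2 eyes it stood at 483, 372, 351, 308 and 387 CPM. The ratios of single mice ranged from -0.46 in mouse 5 to 0.63 in mouse 1, so the mean log2 fold change of 0.02 (SE 0.18, adjusted p = 0.974) stands for mice that differed in direction. The means were 379.6 ± 95.3 and 380.4 ± 64.6 CPM (SD, n = 5 each). Prdx5 shares 409 exon bases with Trmt112 on the opposite strand, which was not called either (log2 fold change 0.07).

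Prdx4 (ENSMUSG00000025289, chrX:155323918-155340754, minus strand), the peroxiredoxin of the endoplasmic reticulum, was the least abundant member. It stood at 21.4, 17.04, 13.03, 13.5 and 14.5 CPM in control eyes and at 18.6, 20.3, 19.8, 26.0 and 27.2 CPM in Nrf2 eyes. Only mouse 1 had the higher level in its control eye, and that eye alone overlapped the Nrf2 group. The means were 15.9 ± 3.46 and 22.4 ± 3.93 CPM (SD, n = 5 each). The log2 fold change of 0.50 (SE 0.22) did not pass (adjusted p = 0.212, unadjusted p = 0.0346 by edgeR's test). With 179 to 519 counts per library, this is the member whose value carries the most counting error.

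**Figure D2:**
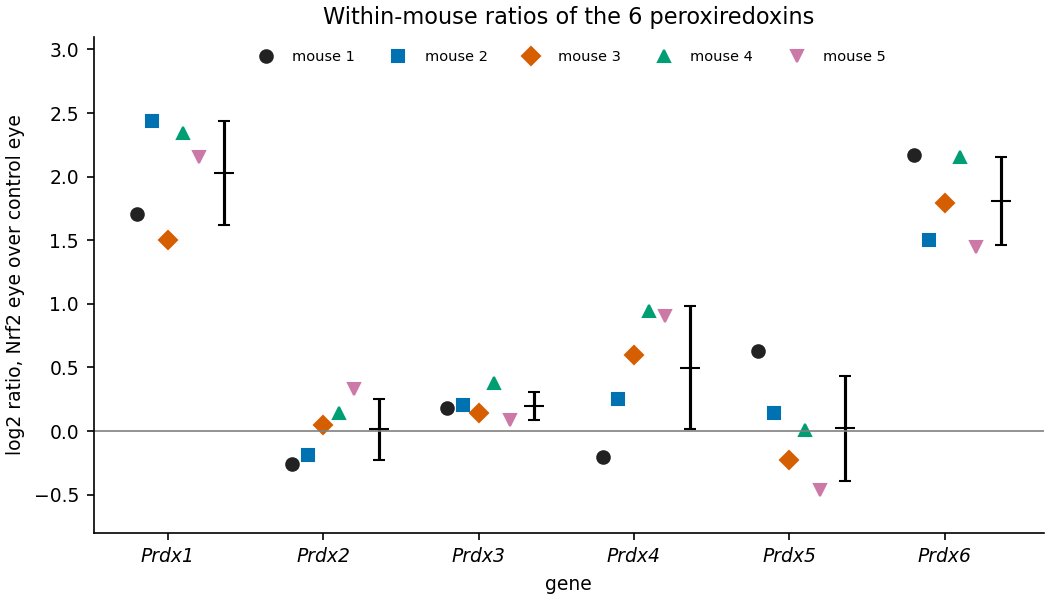
Within-mouse log2 ratios (Nrf2 eye over control eye) of the 6 peroxiredoxins, 1 point per mouse and bars for the mean ± SD. All points of Prdx1 (1.50 to 2.44) and Prdx6 (1.44 to 2.17) lie above every point of Prdx2, Prdx3, Prdx4 and Prdx5, the highest of which is 0.94 for Prdx4.

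Responses were compared between members within each mouse, over all 15 pairs. In 9 of the 15 pairs the difference had the same direction in 5 of 5 mice. In 8 of these 9 pairs Prdx1 or Prdx6 stood above Prdx2, Prdx3, Prdx4 or Prdx5. The log2 ratio of Prdx1 was larger by 2.01 than that of Prdx2, by 1.83 than that of Prdx3, by 1.53 than that of Prdx4 and by 2.01 than that of Prdx5. In the 9th, the difference of Prdx2 minus Prdx4 was -0.48 (SD 0.27), although neither gene passed its own test. For each of these pairs the two-sided exact permutation test gave p = 0.0625, the smallest that 5 pairs allow, and p = 0.104 after adjustment over the 15 pairs. With 5 pairs this exact test cannot pass 0.05.

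Levels of different genes were compared per length, as TPM, counts per base scaled to the library's sum over all genes, over the union of each gene's exons. In control eyes Prdx1 had 599 ± 58.5, Prdx6 518 ± 122, Prdx5 491 ± 113, Prdx2 291 ± 28.0, Prdx3 131 ± 12.4 and Prdx4 21.1 ± 5.59 TPM (SD, n = 5 each). Prdx1 was above Prdx6 in 4 of 5 control eyes and Prdx6 above Prdx5 in 4 of 5, so these neighbours were not separated beyond their spread. The order below them, Prdx5 over Prdx2 over Prdx3 over Prdx4, held in 5 of 5 eyes. With the longest transcript as the length, Prdx6 was above Prdx1 in 4 of 5 control eyes and Prdx5 above Prdx2 in 3 of 5. The length chosen thus sets the upper order, and it also moves levels: with the longest transcript Prdx4 had 34.3 TPM in control and 47.1 TPM in Nrf2 eyes, and Prdx2 had 436 and 438 TPM. The TPM, pools and shares given here are those over the exon union.

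In Nrf2 eyes the levels were 2426 ± 545 TPM for Prdx1 and 1762 ± 297 TPM for Prdx6 (SD, n = 5 each). Prdx5, at 480.3 ± 69.3 TPM, and Prdx2, at 292 ± 65.2 TPM, stood near their control values. With the longest transcript as the length, Prdx6 was above Prdx1 in 3 of 5 Nrf2 eyes and Prdx5 above Prdx2 in 2 of 5, so neither pair is ordered by these data. Among all genes ordered by mean TPM, Prdx1 stood at rank 195 in control eyes and rank 43 in Nrf2 eyes, and Prdx6 at rank 236 and rank 60. Of the 47 tested genes with a mean CPM over the 10 libraries at or above that of Prdx1, Prdx1 and Prdx6 were among 7 called higher, and 8 were called lower. Over all 16362 tested genes 3.6% were called higher and 6.33% in either direction, so calls were more frequent among these abundant genes.

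**Figure D3:**
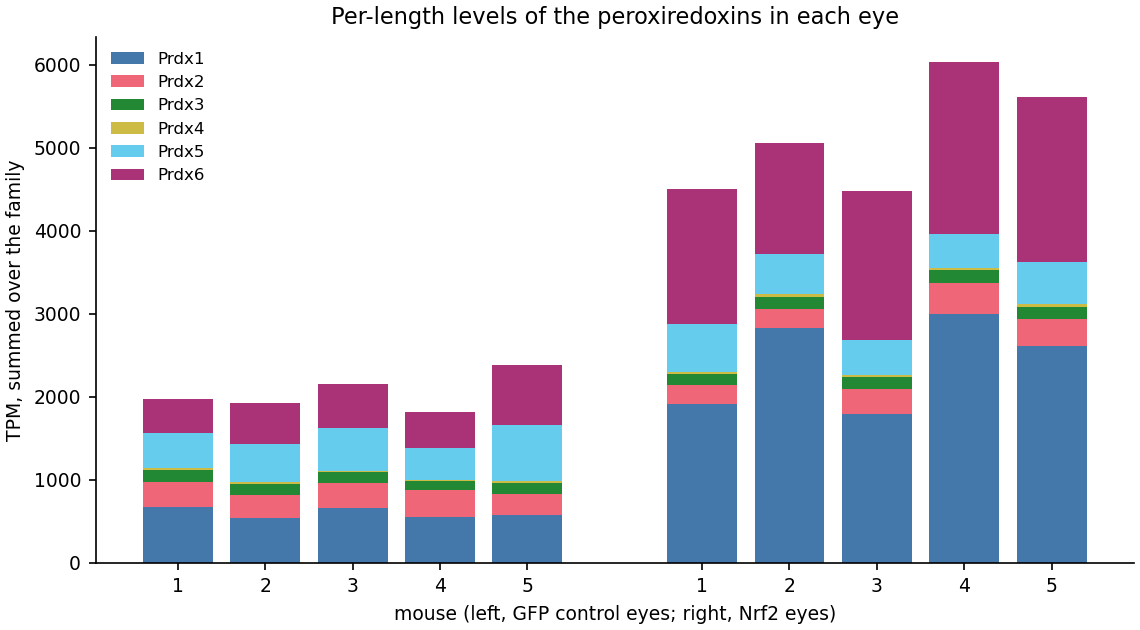
TPM of the 6 peroxiredoxins stacked for each of the 5 control eyes and the 5 Nrf2 eyes, by mouse. The control stacks reach 1819 to 2377 TPM and the Nrf2 stacks 4474 to 6033 TPM, and most of the added height lies in the segments of Prdx1 and Prdx6.

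Summed over the family, the level was 2050 ± 220 TPM in control eyes and 5135 ± 685 TPM in Nrf2 eyes (SD, n = 5 each). The Nrf2 eye held 2.07 to 3.32 times the TPM of its fellow eye, in 5 of 5 mice. Prdx1 and Prdx6 together made 96.6% to 103% of this gain in each mouse, where a value above 100 means that the other members summed to less in the Nrf2 eye. In raw counts the 6 genes took 0.232% ± 0.0281 of a control library and 0.668% ± 0.0876 of an Nrf2 library (SD, n = 5 each).

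By compartment, the cytosolic members Prdx1, Prdx2 and Prdx6 summed to 1408 ± 112 TPM in control eyes and 4480 ± 704 TPM in Nrf2 eyes (SD, n = 5 each). The mean log2 ratio was 1.66, with 1.37 to 2.05 in single mice (two-sided exact permutation test, p = 0.0625, the smallest possible with 5 pairs). Of the cytosolic members Prdx2 stood at 291 TPM in control and 292 TPM in Nrf2 eyes. The rise of this pool is thus that of Prdx1 and Prdx6, and not one shared by all cytosolic members. The mitochondrial members Prdx3 and Prdx5 summed to 621 ± 120 and 626 ± 68.5 TPM, with a mean log2 ratio of 0.03 and a range of -0.32 to 0.35 (exact p = 0.875). Prdx3 alone, with Prdx5 counted as cytosolic, had a mean log2 ratio of 0.16 in TPM (exact p = 0.0625). Prdx4, the secretory member, had a mean log2 ratio of 0.47, from -0.39 to 1.04 (exact p = 0.1875). The cytosolic share of the family was 68.9% ± 2.65 in control eyes and 87.0% ± 2.38 in Nrf2 eyes. The mitochondrial share was 30.1% and 12.4%, and that of Prdx4 1.04% and 0.560%.

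Within the family, Prdx1 made 29.4% ± 3.57 of the TPM in control eyes and 46.9% ± 6.26 in Nrf2 eyes (SD, n = 5 each). Its share was larger in the Nrf2 eye of 5 of 5 mice, by 17.5 percentage points on average and by 8.73 to 27.7 points in single mice (exact permutation p = 0.0625). The share of Prdx6 was 25.1% and 34.5%. The shares of Prdx5, 23.7% and 9.54%, and of Prdx2, 14.4% and 5.68%, were smaller in Nrf2 eyes while their own levels stayed near the control values, since a share depends on the other members.

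Prdx genes have near copies in the genome that could take or lend reads. No stretch of 50 bases was shared between exons of different members. Of the 50-base words of Prdx1, 142 also occur in the pseudogene Gm7204 and 168 in Gm21399. These had 26 and 41 counts over the 5 control libraries and 99 and 171 over the 5 Nrf2 libraries, at most 0.067% of the counts of Prdx1. For Prdx2 the pseudogenes Tdpx-ps1 and Prdx2-rs3, with 140 and 4 shared words, had 13 and 7 counts in control and 14 and 6 in Nrf2 libraries. Prdx6b, a copy of Prdx6 with only 7 shared words, had 20 counts in control and 62 in Nrf2 libraries. Prdx6-ps2, with 0 shared words, had 0 and 13 counts. How the counting treated reads that match several places was not stated, so the split between Prdx1 and its copies is uncertain, though small in the counts as deposited.

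Of the 23 genes that recharge, repair or accompany peroxiredoxins, all were tested, 4 rose, 0 fell and 19 did not pass, with a median log2 fold change of 0.13. Among all tested genes 3.6% were called higher. Those that rose were the repair enzyme, the cytosolic thioredoxin reductase and 2 genes of the glutathione side. Srxn1, sulfiredoxin, went from 39.4 ± 7.23 to 1211 ± 104 CPM. Its log2 fold change was 4.96 (with SE 0.12 and adjusted p = 5.016e-05). Txnrd1, the cytosolic thioredoxin reductase, went from 109 ± 14.8 to 1857 ± 186 CPM, and its log2 fold change was 4.10 (with SE 0.09 and adjusted p = 5.016e-05). Both values are larger than that of any peroxiredoxin, a difference that was not tested. Gstp1, a glutathione transferase known to hand glutathione to Prdx6, went from 231 ± 79.1 to 692 ± 98.4 CPM, or 1.63 on the log2 scale (SE 0.14, adjusted p = 0.0012). Gsr, glutathione reductase, went from 114 ± 24.6 to 344 ± 34.5 CPM, or 1.61 (SE 0.08, adjusted p = 0.000321).

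The thioredoxins, which pass electrons to the cytosolic and mitochondrial peroxiredoxins other than Prdx6, were not among the genes called. Txn1, cytosolic thioredoxin, had 126 CPM in control eyes and 141 CPM in Nrf2 eyes (log2 fold change 0.25, adjusted p = 0.571), with the Nrf2 eye higher in 3 of 5 mice. Txn2, mitochondrial thioredoxin, had 172 and 140.3 CPM (log2 fold change -0.29, adjusted p = 0.214). Txnrd2, mitochondrial thioredoxin reductase, had 9.25 and 11.7 CPM (log2 fold change 0.34, adjusted p = 0.302). A p above the threshold does not show that these levels were equal.

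**Figure D4:**
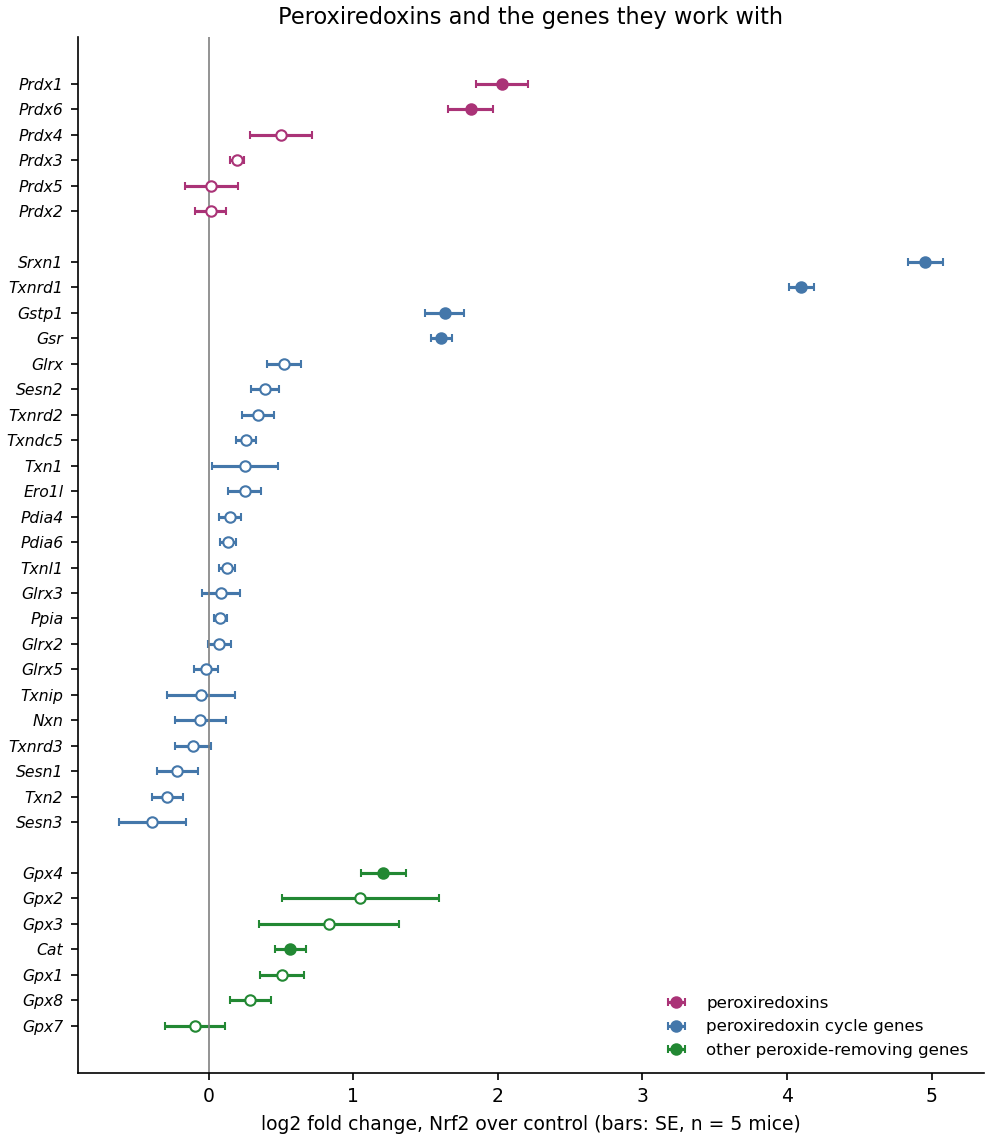
Log2 fold change (Nrf2 over control, points with SE) of the peroxiredoxins, of the 23 genes of the peroxiredoxin cycle and of the 7 other peroxide-removing genes, with filled points for those past the adjusted threshold. Srxn1 (4.96) and Txnrd1 (4.10) lie farthest to the right, and Prdx1 (2.03) and Prdx6 (1.81) come next among the genes drawn.

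Other enzymes remove the same peroxides as the peroxiredoxins. Of 7 such genes, catalase and the glutathione peroxidases, all were tested, 2 rose, 0 fell and 5 did not pass, where 3.6% of all tested genes were called higher. The median log2 fold change was 0.57, against -0.01 over all tested genes. Gpx4, which reduces lipid peroxides in membranes, went from 1311 ± 397 to 2952 ± 498 CPM (log2 fold change 1.21, SE 0.16, adjusted p = 0.00734). Cat, the catalase of peroxisomes, went from 301 ± 31.9 to 447 ± 63.4 CPM (log2 fold change 0.57, SE 0.11, adjusted p = 0.0334). The call of Cat was lost without any of mice 2, 3, 4 or 5, with adjusted p of 0.117, 0.0882, 0.0801 and 0.101 by edgeR, while its log2 fold change stayed between 0.52 and 0.61. Gpx1, the cytosolic glutathione peroxidase, had 322 and 449 CPM and was higher in 5 of 5 mice, but did not pass (log2 fold change 0.51, adjusted p = 0.0979).

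The genes with the most similar course over the 5 mice were sought for Prdx1 and Prdx6 among 10222 tested genes outside the family with a mean of at least 10 CPM. Likeness was the root mean square difference of the 5 within-mouse log2 ratios. Nearest to Prdx1 were Gss, glutathione synthetase, at 0.18, Gbe1, the glycogen branching enzyme, at 0.22, and Cyb5a, cytochrome b5, at 0.29. Nearest to Prdx6 were Popdc3 at 0.18, Gsta3, a glutathione transferase, at 0.36 and Esd, an esterase, at 0.37. Prdx1 and Prdx6 lay 0.59 apart by the same measure. The log2 fold changes of these 6 genes were between 1.69 for Esd and 2.14 for Gsta3, which the measure brings with it.

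**Figure D5:**
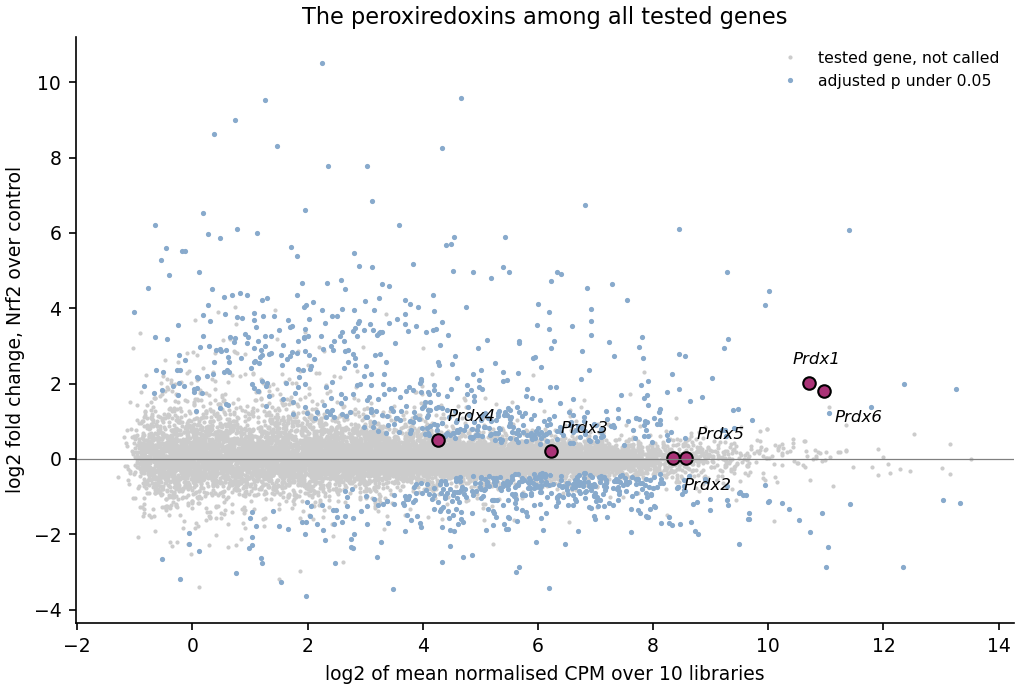
Log2 fold change (Nrf2 over control) against log2 of mean CPM over the 10 libraries for all 16362 tested genes, with the 6 peroxiredoxins named and genes past the adjusted threshold in blue. Prdx1 and Prdx6 lie among abundant genes and far above the median of -0.01, and Prdx2 and Prdx5 lie near 0.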

How the data were processed

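RNA-seq counts of 10 RPE libraries (2 eyes of 5 mice) were analysed. Per the study's methods, reads were aligned with STAR to mm10 with Ensembl release 91 transcripts and counted with featureCounts, and Salmon (0.8.2 per the submitters' notes) gave estimates in parallel. Which table was deposited, the strand setting and the filters were not given in the sources used here. The deposited values are raw counts per gene, with no normalization by the authors. Of 47729 genes 15729 had no count. Symbols, positions and lengths are from GENCODE M21 (mm10), which held 99.1% of the identifiers.

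Differences were tested with edgeR 4.0.16 (R 4.3.3): filterByExpr, TMM, quasi-likelihood test with the mouse as a block, Benjamini-Hochberg adjustment over all tested genes, threshold 0.05. Each SE comes from the spread of the within-mouse log2 ratios (log2 CPM, prior count 2): their SD over the square root of 5. TPM were computed from the counts and exon lengths. Pools, shares and pairs were tested with exact sign-flip permutation tests (scipy 1.17.1). The script was tested on simulated data. A count of 0 allows 3 counts, or 0.110 to 0.244 CPM, a limit for counting error only.

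The animal number in the labels pairs the eyes. The eyes of a mouse deviated together from the group means, with r of 0.19 to 0.71 across genes, against -0.42 to 0.28 between mice. No libraries agreed within sampling noise. Alternatives were no block, DESeq2 1.42.0, RLE size factors, other filters (none, or a mean of 50 counts), thinning to 12298404 counts, a rod covariate, other lengths and leaving out each mouse. Those on pairs of members and on the order of levels were chosen after seeing the data. The members and the gene lists were chosen with earlier results of these data known. Named genes are the members, their copies and overlapping genes, the called genes of both lists with fixed donors and peroxide enzymes, and the 3 nearest genes per called member.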

Additional observations from a re-analysis of the deposited data

Results flagged for a closer look

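In 3 of 66 groups of 5 values on the log2 scale, where chance gives about 1 in 20 (3.3), 1 eye stood apart from the others by Dixon's gap over range (limit 0.71). All 3 were the Nrf2 eye of mouse 2, and none was a level, ratio or pool of a peroxiredoxin. Its rod marker sum was the highest, at 8247 CPM against 324 to 547 CPM in the other Nrf2 eyes (gap over range 0.839). Its endothelial marker sum was the highest, at 97.6 CPM against 53.2 to 60.2 CPM (0.795). Its level of Txnrd2, the mitochondrial thioredoxin reductase, was the lowest, at 3.29 on the log2 CPM scale against 3.58 in the next eye (0.833). The fits without mouse 2 are given beside Prdx1 and Prdx6.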

How the results depend on the processing

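Prdx1 and Prdx6 were called in 12 of 12 alternative fits, with log2 fold changes of 1.90 to 2.22 and 1.75 to 1.93, and Prdx2 to Prdx5 in 0 of 12. Over all genes 1036 were called, 1812 with DESeq2, 523 with the rod covariate and 584 to 857 without 1 mouse, with 584, 613 and 683 without mouse 2, 4 or 5. Without the mouse block 755 were called, and the pairing changed no call of a peroxiredoxin. The count of other peroxide-removing genes was 2. It was 3 with DESeq2, which also called Gpx1 (adjusted p = 0.0176), 1 with the rod covariate (Cat lost its call, with a log2 fold change of 0.54 in place of 0.57 and adjusted p = 0.135 by edgeR) and 1 to 2 without 1 mouse. The count of cycle genes was 4, and 5 with DESeq2 or the stricter filter, which also called Glrx. The log2 fold change of Prdx2 was -0.017 with the rod covariate and -0.064 to 0.12 without 1 mouse (below 0 without mouse 5), and that of Prdx5 was -0.10 to 0.14 (below 0 without mouse 1). With Prdx5 counted as cytosolic, the cytosolic log2 ratio was 1.38 and the mitochondrial one 0.16 in place of 0.03. The mitochondrial one was -0.056 to 0.11 without 1 mouse, below 0 without mouse 1 (-0.056) or mouse 4 (-0.016). The cause of these shifts was not tested. Of 168 alternative values 5 changed sign and 11 moved by more than 1.5 times (counts) or by more than the SD between mice (pools and shares). Prdx4 had the fewest counts. Counting error alone gives it a coefficient of variation of 4.85% to 7.47% in control eyes and 4.39% to 5.49% in Nrf2 eyes. Its eyes differed by more than that, at 21.8% and 17.5%. With 5 pairs every exact test stays above 0.05.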

Other observations

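Glrx, a glutaredoxin that reduces protein-glutathione disulfides, and Sesn2, a sestrin, lay nearest to the threshold among the genes of the peroxiredoxin cycle that did not pass. Glrx had 25.9 ± 7.02 CPM in control and 36.8 ± 7.91 CPM in Nrf2 eyes (SD, n = 5 each). Its log2 fold change was 0.52 (edgeR, adjusted p = 0.0551), and it was called in 2 of 12 alternative fits. Sesn2 had 29.3 ± 3.92 and 38.3 ± 2.36 CPM, with 0.39 on the log2 scale (edgeR, adjusted p = 0.0992). Both were named after their values were seen. The folding enzymes that Prdx4 works beside in the endoplasmic reticulum were not called: Pdia4 had a log2 fold change of 0.15, Pdia6 of 0.13, Txndc5 of 0.26 and Ero1l of 0.25.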
